A study of Homo sapiens with 16 samples.

Results

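The genes described here build, load and run the machinery that copies DNA in S phase. They are 47 genes chosen by symbol from a fixed list, and each was found once in the symbol column of the deposited table of TMM-scaled CPM (read counts scaled to library size, with trimmed-mean factors), which holds 22916 genes. All 47 passed the filter on low counts, which left 17104 genes for testing. Gene expression was measured by RNA sequencing of HCT116, a line established from a human colon carcinoma. The 4 groups were HCT116 cells edited to carry a shortened Rpn10 and given a mix of 4 siRNAs against OTUD5, the same edited cells given a scrambled siRNA, unedited cells given the OTUD5 siRNAs, and unedited cells given the scrambled siRNA. They are called truncation knockdown, truncation scramble, WT knockdown and WT scramble below, with 4 libraries each. PSMD4 encodes Rpn10, through which the proteasome binds ubiquitin chains. The shortened form misses the motif that contacts ubiquitin. OTUD5 removes ubiquitin from proteins. All cells, controls included, went through the same lipid transfection at 50 nM for 48 hours.

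Replication starts at origins that the origin recognition complex marks in G1, where CDC6 and CDT1 load the MCM helicase around DNA. In S phase CDC45 and the GINS complex join the MCM ring and make it an active helicase, polymerase alpha with its primase lays down primers, and polymerases epsilon and delta extend them with the sliding clamp PCNA, which the RFC clamp loader places. Ribonucleotide reductase, thymidylate synthase and thymidine kinase supply the nucleotides, and the transcription factor E2F1 with the E-type cyclins drives the genes of this programme at the G1 to S transition.

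The libraries held 28777244 to 29645663 counts. OTUD5 itself fell with its siRNAs, with a log2 fold change of -2.16 ± 0.07 in truncation cells and -2.13 ± 0.07 in WT cells, the value after ± being the standard error of the fit. The 4 truncation knockdown libraries carry a title that says scramble while their description and treatment say OTUD5 siRNA. They were grouped by the description and treatment, and their OTUD5 level is that of a knockdown. PSMD4 counts cannot check the genotype, since a truncated transcript is still counted. Genes with a count numbered 32264 in WT knockdown replicate 3 and 25626 to 27765 in every other library. The epithelial markers EPCAM, KRT8, KRT18, KRT19, CDH1 and CDX2 were present in every library, at no less than 17.9 CPM, while VIL1 stood at 0.526 CPM or less and CDX1 had at most 2 counts. Some of them differed between groups. EPCAM stood at 105 to 121 CPM in truncation knockdown, 172 to 184 in truncation scramble, 164 to 188 in WT knockdown and 213 to 238 in WT scramble cells. CDH1 stood at 26.2 to 31.8 CPM in truncation knockdown and 27.0 to 30.6 in truncation scramble cells, against 51.7 to 64.9 in WT knockdown and 46.3 to 55.2 in WT scramble cells. The sum of all 6 was 4477 to 5404 CPM in truncation knockdown, 4042 to 4393 in truncation scramble, 3907 to 5167 in WT knockdown and 3947 to 4549 in WT scramble cells, and the part of these shifts in the results was not tested. The leukocyte marker PTPRC stood at 11.7 CPM in WT scramble replicate 4 and at 0.0343 to 0.821 CPM elsewhere. Among the other markers of other cell types, COL1A1 stood at 31.5 to 55.8 CPM and ALB at 5.39 to 35.9 CPM over the libraries. PECAM1 reached at most 1.64 CPM, COL1A2 at most 2.135 CPM and PDGFRB at most 1.08 CPM.

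The labels do not say how many edited clones were used, so the edit and the line that carries it cannot be told apart. Loss of OTUD5 and other targets of the siRNA mix cannot be told apart either. In bulk RNA, fewer cells in S phase and less RNA of these genes per cell cannot be told apart. The libraries are called biological replicates without separate cultures being named, so p-values rest on the spread among these libraries alone.

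As a whole the 47 genes lay lowest in truncation knockdown cells. The median of the 47 log2 values, each set against the mean of WT scramble cells, was -0.76, -0.73, -0.74 and -0.74 in the 4 truncation knockdown libraries. It was -0.16, -0.18, -0.28 and -0.21 in truncation scramble libraries, and -0.32, -0.16, -0.44 and -0.25 in WT knockdown libraries, against -0.02, -0.04, 0.01 and 0.05 in WT scramble libraries. The truncation knockdown libraries lay apart from all others on this median, the truncation scramble and WT knockdown libraries overlapped, and the WT scramble libraries lay above the rest.

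**Figure D1:**
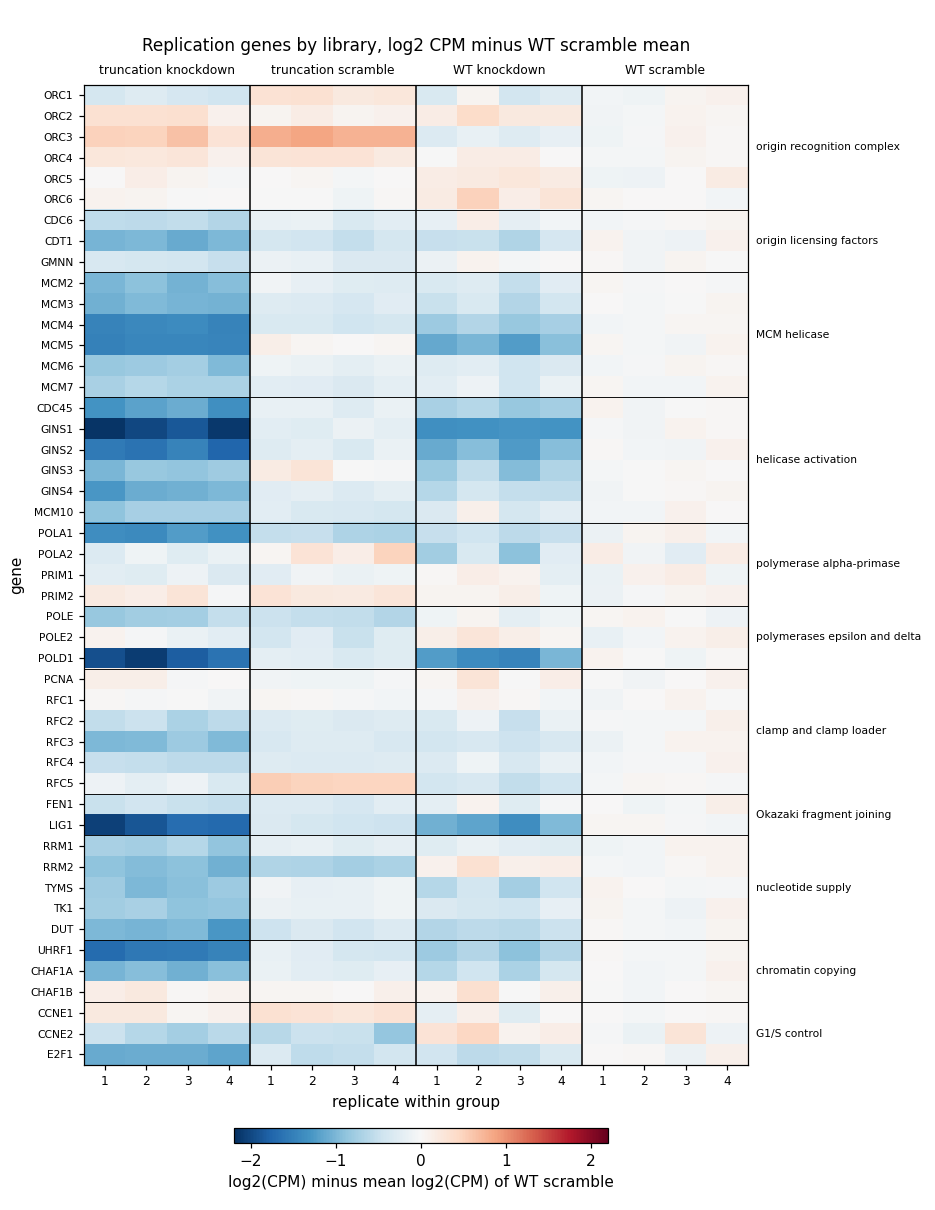
Each row is 1 gene and each column 1 library, coloured by log2 CPM minus the mean log2 CPM of WT scramble cells, with genes ordered by role. GINS1, POLD1, LIG1 and MCM5 are dark blue, that is low, in all 4 truncation knockdown libraries, while ORC3 and RFC5 are red, that is high, in truncation scramble cells.

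The first question is what OTUD5 knockdown did to these genes in each genotype. In truncation cells 33 of the 47 genes were called lower with knockdown, 3 were called higher and 11 were not called, a call being an adjusted p under 0.05 by edgeR's quasi-likelihood test. Over all tested genes 28.1% were called lower and 28.7% higher in that comparison, 56.7% in all, and the median log2 fold change was -0.50 for the 47 genes and 0.02 for all genes. In WT cells 30 of the 47 were lower, 4 higher and 13 not called, against 25.1% lower and 25.2% higher of all genes, 50.3% in all, with a median of -0.26 for the 47 genes and 0.01 for all genes. These 2 comparisons share no library but use the same siRNAs, and 30 genes were lower in both. That is 30 of the 33 lower in truncation cells and all 30 lower in WT cells. The share of all tested genes lower in both was not counted, so this overlap is not set against that of all genes. The helicase genes GINS1, GINS2 and MCM5, the ligase LIG1 and the polymerase delta subunit POLD1 held the largest falls in both genotypes. By contrast, 4 of the 6 subunits of the origin recognition complex were not called lower in either genotype.

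By role, the median log2 fold change in truncation cells was lowest for helicase activation, at -0.98. Okazaki fragment joining followed at -0.76, chromatin copying at -0.74, the MCM ring at -0.71 and nucleotide supply at -0.64. The licensing factors stood at -0.33, polymerase alpha-primase at -0.24, the clamp and clamp loader at -0.23, polymerases epsilon and delta and G1/S control at -0.13 each, and the origin recognition complex at 0.03. In WT cells helicase activation was again lowest, at -0.72, before Okazaki fragment joining at -0.61, chromatin copying at -0.52, the MCM ring at -0.39 and nucleotide supply at -0.32. The clamp and loader and polymerase alpha-primase stood at -0.24 each, polymerases epsilon and delta at -0.08, G1/S control at -0.07, the licensing factors at -0.06 and the origin recognition complex at 0.15. The same 5 roles had the lowest medians in both genotypes, and the origin recognition complex had the highest. Okazaki fragment joining holds only LIG1, at -1.39 in truncation cells and -1.12 in WT cells, and FEN1, which was not called in either. Roles hold few genes each, and their medians are a description with no test. The licensing factors are listed with GMNN, the inhibitor of CDT1, so their median mixes genes of opposite action.

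**Figure D2:**
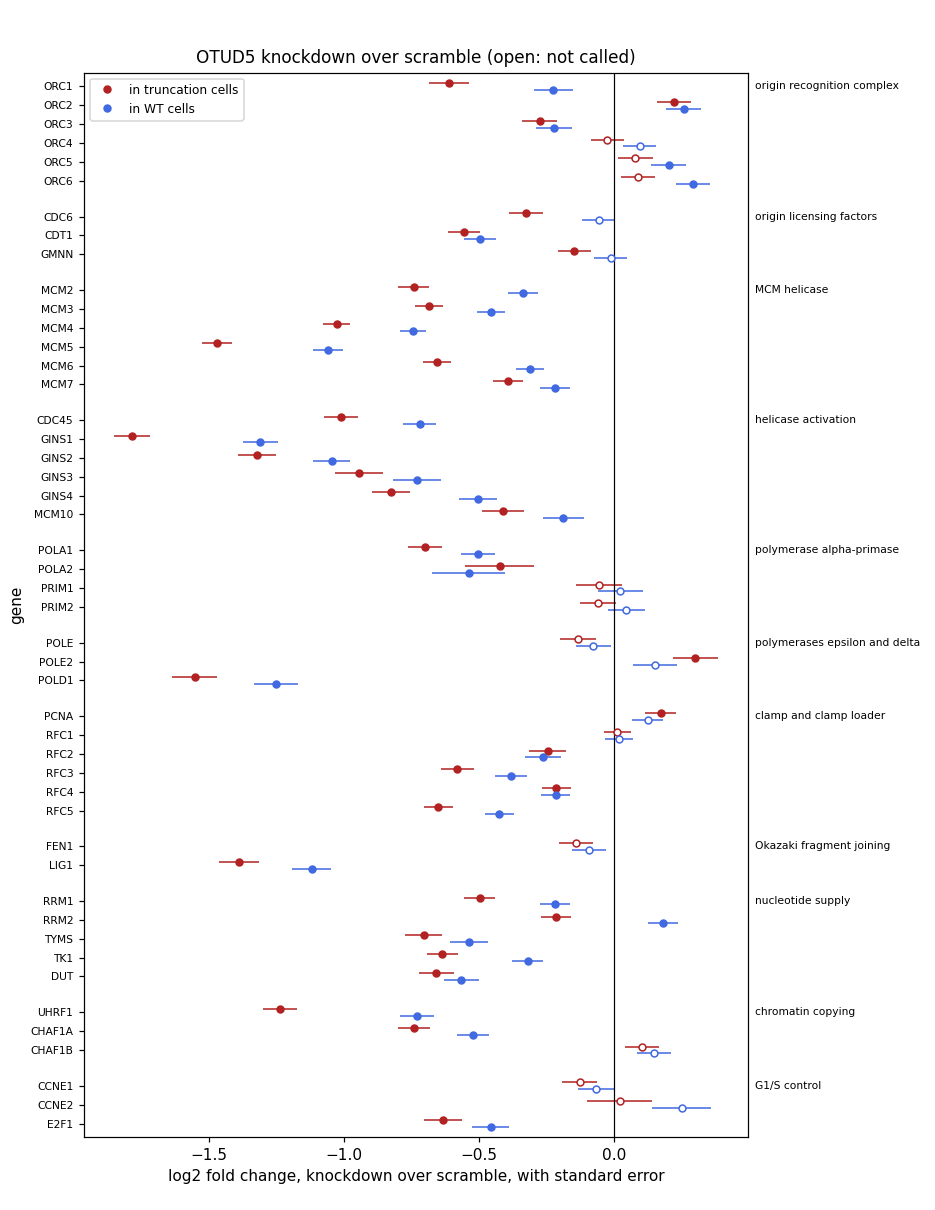
Points give the log2 fold change of knockdown over scramble for each gene in truncation cells (red) and in WT cells (blue), bars the standard error, and open points genes that were not called. GINS1 reaches -1.79 in truncation cells and -1.31 in WT cells, while RRM2 lies on opposite sides of 0 in the 2 genotypes.

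Among the 6 subunits of the origin recognition complex, which binds origins, 2 fell and 1 rose in truncation cells with knockdown, and 2 fell and 3 rose in WT cells. ORC1 (ENSG00000085840, chr1:52372829-52404459, minus strand, hg38), the subunit whose level is known to cycle, stood at 40.9, 43.8, 41.5 and 39.4 CPM in truncation knockdown cells, against 66.3, 67.2, 61.9 and 63.8 CPM in truncation scramble cells. WT cells had ORC1 at 42.2, 55.5, 40.6 and 44.0 CPM with knockdown, against 51.5, 50.0, 55.5 and 57.2 CPM with scramble. The groups did not overlap in truncation cells, where ORC1 fell, at -0.61 ± 0.07 on the log2 scale, while in WT cells knockdown replicate 2 reached into the scramble range. The WT change of -0.22 ± 0.07 had an adjusted p of 0.0138 by edgeR, and was no longer called without WT scramble replicate 4 or without WT knockdown replicate 1 or 3, with adjusted p of 0.0559 to 0.0643.

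ORC2, a core subunit, stood at 61.1, 61.0, 62.2 and 52.0 CPM in truncation knockdown cells, against 50.4, 54.3, 50.4 and 52.0 CPM in truncation scramble cells. WT cells had ORC2 at 54.2, 64.4, 56.2 and 56.7 CPM with knockdown, against 45.9, 47.4, 51.5 and 49.9 CPM with scramble. It rose in both genotypes, by 0.22 ± 0.06 in truncation cells and 0.26 ± 0.06 in WT cells on the log2 scale, and it was the only one of the 47 genes called higher in both knockdown comparisons. Truncation knockdown replicate 4 lay at the level of the scramble libraries.

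ORC6, the smallest subunit, had 49.8, 49.0, 46.5 and 47.3 CPM in truncation knockdown cells, against 46.8, 46.5, 44.2 and 47.6 CPM in truncation scramble cells. WT cells had ORC6 at 53.4, 66.6, 52.2 and 57.1 CPM with knockdown, against 48.6, 47.3, 47.2 and 45.1 CPM with scramble. ORC6 rose in WT cells by 0.29 ± 0.06, where the groups did not overlap, and was not called in truncation cells, at 0.09 ± 0.06.

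ORC5, which binds ATP, had 31.3, 34.5, 32.6 and 30.6 CPM in truncation knockdown cells, against 31.4, 32.2, 30.3 and 31.1 CPM in truncation scramble cells. WT cells had ORC5 at 35.1, 35.6, 37.0 and 35.3 CPM with knockdown, against 29.2, 28.9, 31.4 and 35.5 CPM with scramble. The WT groups overlapped through scramble replicate 4, and the call for a rise of 0.20 ± 0.07 (adjusted p of 0.0113 by edgeR) was lost without WT scramble replicate 2, at an adjusted p of 0.054, and without WT knockdown replicates 2 and 3 together, at 0.0829. ORC4 was not called in either genotype, at -0.02 ± 0.06 in truncation cells and 0.10 ± 0.06 in WT cells.

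The licensing factors differed among themselves. CDT1, which brings the MCM ring to the origin, had 103, 107, 97.9 and 107 CPM in truncation knockdown cells, against 161, 157, 146 and 160.3 CPM in truncation scramble cells. WT cells had CDT1 at 149, 149.7, 134 and 163 CPM with knockdown, against 223, 199, 196 and 226 CPM with scramble. The groups did not overlap in either genotype, and CDT1 fell, at -0.55 ± 0.06 in truncation cells and -0.50 ± 0.06 in WT cells on the log2 scale. CDC6, the other loader, fell in truncation cells, at -0.33 ± 0.06, and was not called in WT cells, at -0.06 ± 0.06, save without WT knockdown replicate 2 (adjusted p of 0.0462 by edgeR). GMNN, the inhibitor of CDT1, was called lower in truncation cells, at -0.15 ± 0.06, and stood at -0.01 ± 0.06 in WT cells without a call. The GMNN call was lost without truncation scramble replicate 1 or 2 or truncation knockdown replicate 2 or 4, with adjusted p of 0.0627 to 0.117.

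All 6 subunits of the MCM ring, the motor of the replicative helicase, fell with knockdown in both genotypes. Their log2 fold changes ran from -1.47 for MCM5 to -0.39 for MCM7 in truncation cells, with a median of -0.71, and from -1.06 for MCM5 to -0.22 for MCM7 in WT cells, with a median of -0.39. MCM5 (ENSG00000100297, chr22:35400063-35425430, plus strand) had 123, 127, 127 and 126 CPM in truncation knockdown cells, against 377, 355, 343 and 354 CPM in truncation scramble cells. WT cells had MCM5 at 157, 171, 147 and 181 CPM with knockdown, against 352, 334, 326 and 362 CPM with scramble. Every knockdown library lay below every scramble library of its genotype, with log2 fold changes of -1.47 ± 0.06 in truncation cells and -1.06 ± 0.06 in WT cells.

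MCM2, the subunit that also binds histones, had 118, 127, 116 and 125 CPM in truncation knockdown cells, against 226, 211, 199.7 and 196 CPM in truncation scramble cells. WT cells had MCM2 at 189, 196, 167 and 200.4 CPM with knockdown, against 247, 234, 240.1 and 234 CPM with scramble. The groups did not overlap, with log2 fold changes of -0.74 ± 0.06 in truncation cells and -0.34 ± 0.06 in WT cells. MCM6, a further ring subunit, had 116, 118, 123 and 105 CPM in truncation knockdown cells, against 193, 187, 179 and 187 CPM in truncation scramble cells. WT cells had MCM6 at 169, 175, 152 and 166 CPM with knockdown, against 198, 202, 215 and 210.5 CPM with scramble. MCM6 again did not overlap between knockdown and scramble, at -0.65 ± 0.05 in truncation cells and -0.31 ± 0.05 in WT cells. MCM3 stood at -0.68 ± 0.05 in truncation cells and -0.45 ± 0.05 in WT cells and MCM4 at -1.03 ± 0.05 in truncation cells and -0.74 ± 0.05 in WT cells.

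The factors that activate the ring fell in all 6 cases in both genotypes, with medians of -0.98 in truncation cells and -0.72 in WT cells. GINS1 (ENSG00000101003, chr20:25407727-25452628, plus strand), a subunit of the GINS complex, had the lowest fold change of the 47 genes in both comparisons. It stood at 14.0, 15.7, 17.2 and 14.4 CPM in truncation knockdown cells, against 53.2, 52.1, 57.1 and 54.1 CPM in truncation scramble cells. WT cells had GINS1 at 24.7, 25.0, 25.6 and 25.1 CPM with knockdown, against 61.3, 59.6, 66.1 and 63.9 CPM with scramble. No knockdown library came near a scramble library, and GINS1 fell, at -1.79 ± 0.07 in truncation cells (adjusted p of 1.6e-16 by edgeR) and -1.31 ± 0.06 in WT cells (adjusted p of 5.6e-14). GINS2 also fell, at -1.32 ± 0.07 in truncation cells and -1.05 ± 0.07 in WT cells, and GINS3 at -0.95 ± 0.09 in truncation cells and -0.73 ± 0.09 in WT cells. GINS4 stood at -0.83 ± 0.07 in truncation cells and -0.50 ± 0.07 in WT cells, and CDC45, the partner of GINS on the ring, at -1.01 ± 0.06 in truncation cells and -0.72 ± 0.06 in WT cells. MCM10, which helps the helicase open origins, fell least, at -0.41 ± 0.08 in truncation cells and -0.19 ± 0.08 in WT cells. Its WT call (adjusted p of 0.0429 by edgeR) was lost without WT scramble replicate 3 or 4 or without WT knockdown replicate 1, 3 or 4, with adjusted p of 0.0933 to 0.154.

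Within polymerase alpha-primase, which starts every new strand, both polymerase subunits fell and neither primase subunit was called. POLA1, the catalytic subunit, had 28.1, 27.4, 31.1 and 28.7 CPM in truncation knockdown cells, against 50.7, 51.1, 45.3 and 44.9 CPM in truncation scramble cells. WT cells had POLA1 at 51.2, 53.6, 48.7 and 51.0 CPM with knockdown, against 66.7, 75.8, 78.9 and 70.1 CPM with scramble. The groups did not overlap, with fold changes of -0.70 ± 0.06 in truncation cells and -0.50 ± 0.06 in WT cells. POLA2, the accessory subunit and per length among the lowest of the 47 genes, had 5.05, 5.83, 5.21 and 5.68 CPM in truncation knockdown cells, against 6.48, 7.71, 6.93 and 8.79 CPM in truncation scramble cells. WT cells had POLA2 at 3.70, 4.96, 3.35 and 5.26 CPM with knockdown, against 6.97, 5.93, 5.27 and 7.04 CPM with scramble. Its fold changes of -0.42 ± 0.13 in truncation cells and -0.54 ± 0.13 in WT cells carry the widest errors of the 47 genes. PRIM1 and PRIM2, the primase subunits, stood at -0.05 ± 0.08 and -0.06 ± 0.07 in truncation cells and at 0.02 ± 0.08 and 0.05 ± 0.07 in WT cells.

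The replicative polymerases split by subunit. POLD1 (ENSG00000062822, chr19:50384204-50418016, plus strand), the catalytic subunit of polymerase delta, had 37.3, 33.5, 40.2 and 46.1 CPM in truncation knockdown cells, against 123, 120.4, 112 and 118 CPM in truncation scramble cells. WT cells had POLD1 at 60.2, 54.6, 51.7 and 70.5 CPM with knockdown, against 149.6, 141, 132 and 145 CPM with scramble. The groups lay far apart, and POLD1 fell, at -1.55 ± 0.08 in truncation cells (adjusted p of 1.3e-13 by edgeR) and -1.25 ± 0.08 in WT cells (adjusted p of 9.3e-12). POLE, the catalytic subunit of polymerase epsilon, was not called, at -0.13 ± 0.07 in truncation cells and -0.08 ± 0.07 in WT cells. Without truncation knockdown replicate 4 it was called lower in truncation cells, at an adjusted p of 0.00546. POLE2, its second subunit, had 20.0, 18.4, 17.0 and 15.9 CPM in truncation knockdown cells, against 14.3, 15.9, 13.3 and 15.7 CPM in truncation scramble cells. WT cells had POLE2 at 20.6, 22.7, 20.6 and 19.4 CPM with knockdown, against 16.9, 18.1, 19.9 and 20.6 CPM with scramble. POLE2 rose in truncation cells, at 0.30 ± 0.08, the highest value of the 47 genes in that comparison, and was not called in WT cells, at 0.15 ± 0.08.

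The clamp and its loader changed less. PCNA, the sliding clamp and per length the highest of the 47 genes in each group, had 422, 422, 378 and 389 CPM in truncation knockdown cells, against 364, 361, 361 and 376 CPM in truncation scramble cells. WT cells had PCNA at 397, 468, 382 and 424 CPM with knockdown, against 380.4, 363, 388 and 409 CPM with scramble. The truncation groups did not overlap by a narrow margin and PCNA was called higher there, at 0.17 ± 0.06 (adjusted p of 0.0119 by edgeR). That call was lost without truncation scramble replicate 1, 2 or 3 or truncation knockdown replicate 1, with adjusted p of 0.054 to 0.0834. In WT cells PCNA stood at 0.13 ± 0.06, not called, and was called without WT scramble replicate 4 or WT knockdown replicate 1 or 3, with adjusted p of 0.029 to 0.0495. PCNA has 3 named pseudogenes, so part of its reads may have been assigned elsewhere.

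RFC5, a small subunit of the loader, had 81.4, 76.1, 81.6 and 69.8 CPM in truncation knockdown cells, against 129, 124, 122 and 122 CPM in truncation scramble cells. WT cells had RFC5 at 66.6, 68.6, 60.6 and 64.8 CPM with knockdown, against 85.7, 90.3, 89.1 and 86.9 CPM with scramble. It fell, at -0.65 ± 0.05 in truncation cells and -0.42 ± 0.05 in WT cells, with no overlap. RFC1, the large subunit, had 123, 119, 119.7 and 115 CPM in truncation knockdown cells, against 125, 124, 118 and 116 CPM in truncation scramble cells. WT cells had RFC1 at 118, 129, 123 and 116 CPM with knockdown, against 114, 122, 127 and 120.1 CPM with scramble. All groups overlapped for RFC1 and no comparison called it, with knockdown values of 0.01 ± 0.05 in truncation cells and 0.02 ± 0.05 in WT cells. RFC2, RFC3 and RFC4 fell in both genotypes, at -0.24 ± 0.07, -0.58 ± 0.06 and -0.21 ± 0.06 in truncation cells and at -0.26 ± 0.07, -0.38 ± 0.06 and -0.22 ± 0.05 in WT cells.

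The enzymes that finish lagging-strand fragments also differed. LIG1 (ENSG00000105486, chr19:48115445-48170603, minus strand), the ligase that seals them, had 26.3, 29.6, 34.0 and 33.1 CPM in truncation knockdown cells, against 87.8, 83.0, 80.3 and 78.9 CPM in truncation scramble cells. WT cells had LIG1 at 52.3, 49.0, 42.2 and 55.8 CPM with knockdown, against 113, 112, 107 and 104 CPM with scramble. LIG1 fell, at -1.39 ± 0.08 in truncation cells and -1.12 ± 0.07 in WT cells, with wide gaps between groups, whereas the flap nuclease FEN1 was not called, at -0.14 ± 0.06 in truncation cells and -0.09 ± 0.06 in WT cells. FEN1 was called lower without truncation scramble replicate 3 in truncation cells and without WT knockdown replicate 2 in WT cells, where edgeR gave an adjusted p of 0.0383 in the first case and 0.0359 in the second.

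Of the 5 nucleotide supply genes all fell with knockdown in truncation cells, and 4 fell and 1 rose in WT cells. TYMS, thymidylate synthase, had 24.7, 21.5, 22.3 and 24.5 CPM in truncation knockdown cells, against 40.4, 37.5, 38.0 and 39.6 CPM in truncation scramble cells. WT cells had TYMS at 27.3, 32.2, 25.4 and 31.3 CPM with knockdown, against 44.6, 42.4, 41.0 and 41.7 CPM with scramble. TYMS fell, at -0.71 ± 0.07 in truncation cells and -0.54 ± 0.07 in WT cells without overlap. RRM2 (ENSG00000171848, chr2:10120698-10131419, plus strand), the small subunit of ribonucleotide reductase that limits the enzyme in S phase, had 225, 215, 220.2 and 199 CPM in truncation knockdown cells, against 261, 258, 246 and 255 CPM in truncation scramble cells. WT cells had RRM2 at 443, 524, 446 and 456 CPM with knockdown, against 400.4, 398, 423 and 435 CPM with scramble. RRM2 fell, at -0.21 ± 0.06 in truncation cells and rose by 0.18 ± 0.06 in WT cells, with no overlap in either, and the WT rise was no longer called without WT knockdown replicates 2 and 3 together, at an adjusted p of 0.111. RRM1, the large subunit, fell in both, at -0.50 ± 0.06 in truncation cells and -0.22 ± 0.06 in WT cells. Thymidine kinase TK1 fell, at -0.64 ± 0.06 in truncation cells and -0.32 ± 0.06 in WT cells, and the dUTPase DUT at -0.66 ± 0.07 in truncation cells and -0.56 ± 0.06 in WT cells. RRM2 has 3 named pseudogenes, TYMS 2 and DUT 8, and their levels are uncertain to that extent.

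Among the genes that restore chromatin behind the fork, UHRF1 (ENSG00000276043, chr19:4903080-4962154, plus strand), which guides DNA methylation to new strands, had 90.8, 98.5, 99.8 and 105 CPM in truncation knockdown cells, against 261, 247, 222 and 221 CPM in truncation scramble cells. WT cells had UHRF1 at 168, 188, 157 and 188 CPM with knockdown, against 297, 282, 284 and 306 CPM with scramble. UHRF1 fell, at -1.24 ± 0.06 in truncation cells and -0.73 ± 0.06 in WT cells, and no libraries overlapped. The histone chaperone CAF-1 split between its subunits. CHAF1A fell, at -0.74 ± 0.06 in truncation cells and -0.52 ± 0.06 in WT cells. CHAF1B had 71.9, 75.5, 65.7 and 68.8 CPM in truncation knockdown cells, against 66.9, 67.0, 65.0 and 69.6 CPM in truncation scramble cells. WT cells had CHAF1B at 68.3, 83.0, 64.6 and 70.1 CPM with knockdown, against 64.5, 62.4, 65.4 and 67.1 CPM with scramble. All groups of CHAF1B overlapped, and it was not called, with knockdown values of 0.10 ± 0.06 in truncation cells and 0.15 ± 0.06 in WT cells. In WT cells it was called higher without WT scramble replicate 4 or WT knockdown replicate 1, 3 or 4, with adjusted p of 0.0244 to 0.0493. It was also called higher in WT cells with RLE, upper-quartile or library-total scaling and with DESeq2, at adjusted p of 0.0126 to 0.0474, and in truncation cells with upper-quartile (0.0347) or library-total scaling (0.0314).

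Of the drivers of S phase entry, E2F1, a known activator of replication genes, had 22.1, 22.6, 22.4 and 21.5 CPM in truncation knockdown cells, against 38.9, 32.5, 33.4 and 36.1 CPM in truncation scramble cells. WT cells had E2F1 at 35.8, 32.0, 33.0 and 38.2 CPM with knockdown, against 48.2, 48.6, 43.7 and 51.6 CPM with scramble. E2F1 fell, at -0.63 ± 0.07 in truncation cells and -0.46 ± 0.07 in WT cells, without overlap. Cyclin E was not called in either genotype, with CCNE1 at -0.13 ± 0.07 in truncation cells and -0.07 ± 0.07 in WT cells and CCNE2 at 0.02 ± 0.12 in truncation cells and 0.25 ± 0.11 in WT cells. CCNE1 was called lower in truncation cells without truncation knockdown replicate 1, at an adjusted p of 0.0484. Without WT knockdown replicate 3 the genes called higher in WT cells numbered 7 in place of 4, CCNE2, CHAF1B and PCNA being the ones gained. Over all genes 3919 to 4254 were called higher in WT cells in the fits without 1 library. CCNE2 was also gained without WT scramble replicate 3 or WT knockdown replicate 4.

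The promoters of the 2 genes with the lowest and the 2 with the highest mean knockdown change are shown because they bracket the range of the response. They come from RefSeq (GRCh38.p14) and cover 250 bases before to 50 after each gene's start. Capitals mark matches to an E2F-type site, searched as TTTCCCGC, TTTCGCGC, TTTGCCGC or TTTGGCGC on both strands, where a promoter counted once whether or not matches overlapped. GINS1 (chr20:25407423-25407722, plus strand) and POLD1 (chr19:50398602-50398901, plus strand) fell most, with mean log2 fold changes of -1.55 and -1.40. POLE2 (chr14:49688165-49688464, minus strand) and ORC2 (chr2:200963611-200963910, minus strand) lay highest, at 0.23 and 0.24.
GINS1: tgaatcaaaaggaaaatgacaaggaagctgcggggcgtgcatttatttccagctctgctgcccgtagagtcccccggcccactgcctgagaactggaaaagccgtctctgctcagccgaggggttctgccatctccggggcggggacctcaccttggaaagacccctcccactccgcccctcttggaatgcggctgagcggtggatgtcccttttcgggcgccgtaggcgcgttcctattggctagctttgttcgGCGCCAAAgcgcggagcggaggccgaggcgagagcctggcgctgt
POLD1: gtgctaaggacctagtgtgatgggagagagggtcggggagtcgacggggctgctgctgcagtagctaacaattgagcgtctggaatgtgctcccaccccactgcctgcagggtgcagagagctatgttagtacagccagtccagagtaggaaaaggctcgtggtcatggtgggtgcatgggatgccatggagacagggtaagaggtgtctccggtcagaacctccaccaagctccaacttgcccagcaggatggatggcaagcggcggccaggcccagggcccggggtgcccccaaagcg
POLE2: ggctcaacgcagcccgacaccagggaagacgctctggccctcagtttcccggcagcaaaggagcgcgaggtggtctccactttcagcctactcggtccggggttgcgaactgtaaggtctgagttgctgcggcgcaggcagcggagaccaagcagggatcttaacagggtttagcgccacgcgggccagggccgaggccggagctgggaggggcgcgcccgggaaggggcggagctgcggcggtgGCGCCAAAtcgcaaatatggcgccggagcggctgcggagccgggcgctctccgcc
ORC2: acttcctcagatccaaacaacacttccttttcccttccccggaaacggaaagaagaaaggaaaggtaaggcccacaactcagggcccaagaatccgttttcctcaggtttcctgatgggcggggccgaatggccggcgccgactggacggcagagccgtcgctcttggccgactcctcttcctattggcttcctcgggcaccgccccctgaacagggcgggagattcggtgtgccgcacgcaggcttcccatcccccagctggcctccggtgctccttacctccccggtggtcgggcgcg
One gene at each end, GINS1 and POLE2, holds the same E2F-type letters, and the windows of POLD1 and ORC2 hold none. The POLD1 window lies well inside the gene interval of the GENCODE annotation used for coordinates, which starts at 50384204, so its start differs between the annotations. Its lack of a match therefore says nothing about the sequence at the GENCODE start of POLD1. The POLE2 and ORC2 windows hold the GENCODE start of their genes, and the GINS1 window ends just before it.

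RefSeq promoters were found for 43 of the 47 genes, all but MCM4, MCM5, GINS4 and CCNE2. An E2F-type match was present in 19 of the 43 (44.2%), against 3.31% of all 35116 promoters of the same length. Those promoters were not limited to the tested genes, and the share among tested genes was not counted for any motif. A CCAAT box, searched as CCAAT on both strands, was present in 24 of 43 (55.8%), against 34.6% of all promoters, and TTTGAA, a core of the cell cycle homology region, in 2 of 43 (4.65%), against 15.2%. The median of the mean knockdown change was -0.54 in the 19 genes with an E2F-type match and -0.17 in the 24 without, given as a description with no test. The 24 include POLD1, whose window does not hold the GENCODE start of the gene. MCM6 holds 4 matches and fell, whereas POLE2 holds 1 and did not. A match only describes the letters in the window.

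The next question is what the Rpn10 truncation did, with knockdown and without. In knockdown cells 34 of the 47 genes were called lower in truncation than in WT cells, 4 were higher and 9 were not called, against 23.6% lower and 21.9% higher of all tested genes, 45.5% in all. The median log2 fold change was -0.44 for the 47 genes and 0.00 for all genes. In scramble cells 30 were lower, 6 higher and 11 not called, against 22.4% lower and 21.6% higher of all genes, 44.0% in all, with a median of -0.23 for the 47 genes and -0.02 for all genes. The 2 comparisons share no library but use the same edited line, and 30 genes were lower in both, which is 30 of the 34 and all of the 30. For this overlap too the share of all tested genes was not counted. RRM2, CCNE2, POLA1 and POLE fell most in scramble cells, and these were not the genes with the largest knockdown falls.

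In knockdown cells the median by role was lowest for G1/S control, at -0.64, and for polymerases epsilon and delta, at -0.58. Helicase activation stood at -0.55, the MCM ring and Okazaki fragment joining at -0.53 each, the licensing factors at -0.50, nucleotide supply at -0.48 and chromatin copying at -0.44. The clamp and clamp loader stood at -0.17, polymerase alpha-primase at -0.06 and the origin recognition complex at -0.04. In scramble cells G1/S control was also lowest, at -0.46, with Okazaki fragment joining at -0.37 and polymerases epsilon and delta at -0.36. The licensing factors, MCM ring, helicase activation, nucleotide supply, chromatin copying and the clamp and loader lay between -0.25 and -0.20. Polymerase alpha-primase stood at 0.04 and the origin recognition complex at 0.16.

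**Figure D3:**
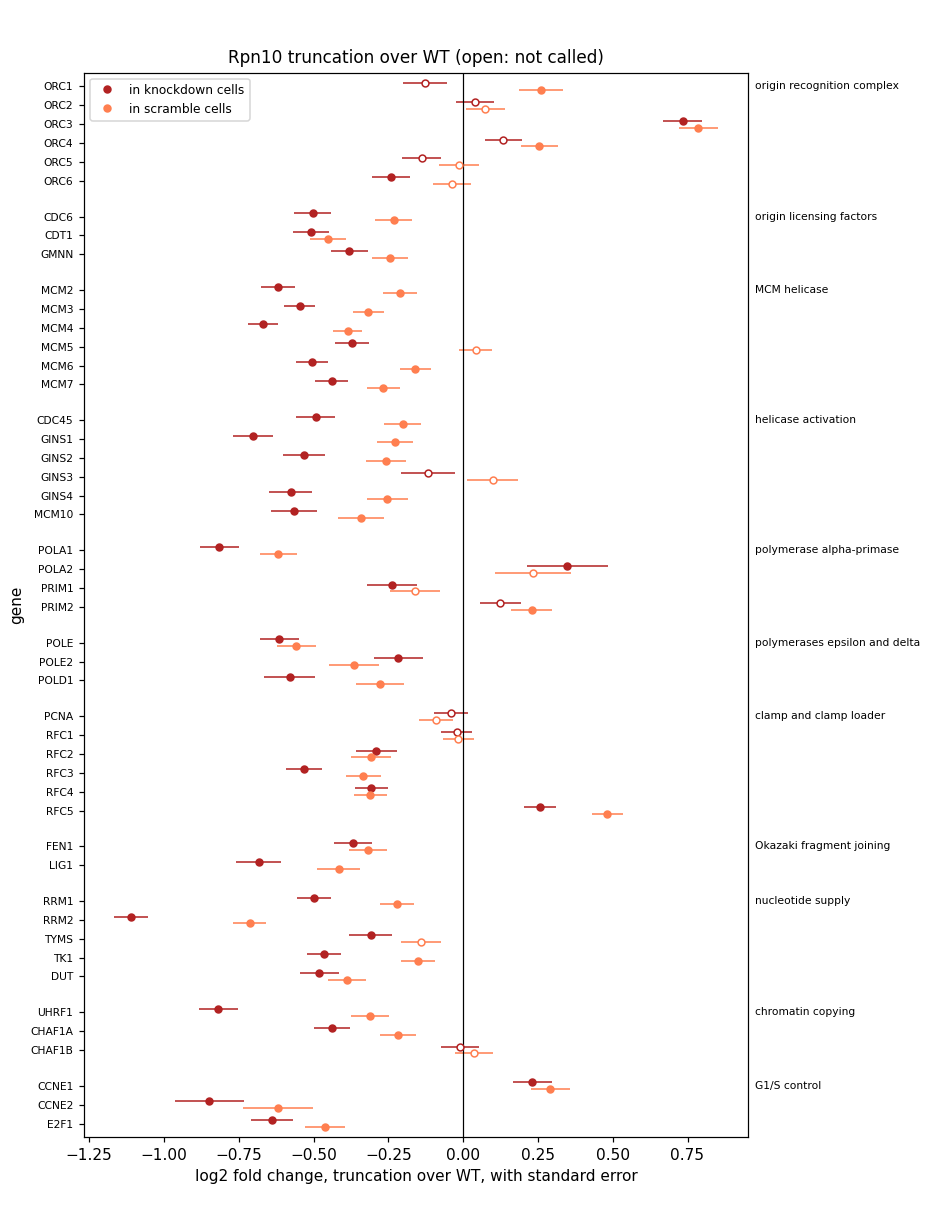
Points give the log2 fold change of truncation over WT for each gene in knockdown cells (dark red) and in scramble cells (orange), bars the standard error, and open points genes that were not called. RRM2 lies lowest, at -1.11 in knockdown cells and -0.71 in scramble cells, and ORC3 highest, at 0.73 in knockdown cells and 0.79 in scramble cells.

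ORC3 (ENSG00000135336, chr6:87590067-87667453, plus strand), a core subunit of the origin recognition complex, rose with truncation in both settings. It had 55.1, 54.3, 60.5 and 47.5 CPM in truncation knockdown cells, against 31.2, 34.6, 31.5 and 34.2 CPM in WT knockdown cells. Scramble libraries had ORC3 at 67.4, 70.7, 65.3 and 65.9 CPM in truncation cells, against 36.1, 38.0, 41.2 and 39.4 CPM in WT cells. The genotypes were fully apart, by 0.73 ± 0.07 in knockdown cells and 0.79 ± 0.07 in scramble cells. Knockdown lowered ORC3 within each genotype, at -0.28 ± 0.06 in truncation cells and -0.22 ± 0.07 in WT cells. RFC5, whose values are given above, likewise rose with truncation, by 0.26 ± 0.05 in knockdown cells and 0.48 ± 0.05 in scramble cells, and fell with knockdown. Cyclin E1 was the only other gene higher in both settings. CCNE1 had 55.1, 54.8, 48.9 and 50.8 CPM in truncation knockdown cells, against 41.5, 51.1, 39.4 and 47.9 CPM in WT knockdown cells. Scramble libraries had CCNE1 at 60.1, 58.6, 56.4 and 59.1 CPM in truncation cells, against 47.9, 45.7, 47.7 and 48.2 CPM in WT cells. CCNE1 rose by 0.23 ± 0.07 in knockdown cells and 0.29 ± 0.07 in scramble cells, and in knockdown cells the groups overlapped through WT knockdown replicate 2.

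The rest of the origin recognition complex was mixed. In scramble cells ORC1 rose by 0.26 ± 0.07 and ORC4 by 0.25 ± 0.06, whereas in knockdown cells neither was called, at -0.13 ± 0.07 and 0.13 ± 0.06. ORC4 was called higher in knockdown cells without WT knockdown replicate 2 or 3 or truncation knockdown replicate 4, with adjusted p of 0.031 to 0.0436. ORC6 fell in knockdown cells, at -0.24 ± 0.06, and was not called in scramble cells, at -0.04 ± 0.06. ORC2 and ORC5 were not called in either. All 3 genes listed as licensing factors fell in both. CDC6 stood at -0.50 ± 0.06 in knockdown cells and -0.23 ± 0.06 in scramble cells. CDT1 stood at -0.51 ± 0.06 in knockdown cells and -0.45 ± 0.06 in scramble cells. GMNN, the inhibitor of CDT1, stood at -0.38 ± 0.06 in knockdown cells and -0.24 ± 0.06 in scramble cells.

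The MCM ring fell in 6 of 6 subunits in knockdown cells, from -0.67 for MCM4 to -0.37 for MCM5, and in 5 of 6 in scramble cells. The exception was MCM5, the subunit with the largest knockdown fall, at 0.04 ± 0.05 without a call. The MCM6 call in scramble cells, -0.16 ± 0.05, was lost without WT scramble replicate 4 or truncation scramble replicate 3, with adjusted p of 0.0593 to 0.0805. Of the helicase activators 5 of 6 fell in each setting and GINS3 was not called, at -0.12 ± 0.09 in knockdown cells and 0.10 ± 0.08 in scramble cells. GINS1 stood at -0.70 ± 0.07 in knockdown cells and -0.23 ± 0.06 in scramble cells. CDC45 stood at -0.49 ± 0.06 in knockdown cells and -0.20 ± 0.06 in scramble cells, the scramble call being lost without truncation scramble replicate 3, at an adjusted p of 0.0609.

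Polymerase subunits again differed. POLA1 fell, at -0.81 ± 0.06 in knockdown cells and -0.62 ± 0.06 in scramble cells. POLE fell, at -0.61 ± 0.07 in knockdown cells and -0.56 ± 0.07 in scramble cells, having not been called in either knockdown comparison, and it averaged 152 ± 14.9 CPM in truncation knockdown cells and 235 ± 18.3 CPM in WT knockdown cells (SD, n = 4 each). Scramble libraries had POLE at 171 ± 8.58 CPM in truncation cells and 249.6 ± 14.3 CPM in WT cells. POLD1 fell, at -0.58 ± 0.08 in knockdown cells and -0.28 ± 0.08 in scramble cells, and POLE2 at -0.22 ± 0.08 in knockdown cells and -0.36 ± 0.08 in scramble cells. The POLE2 call in knockdown cells was lost without WT knockdown replicate 2 or 3 or truncation knockdown replicate 3 or 4, with adjusted p of 0.0516 to 0.116. POLA2 was called higher in knockdown cells, at 0.35 ± 0.14, with overlapping groups. That call was lost without WT knockdown replicate 1 or 3 or truncation knockdown replicate 2, 3 or 4, with adjusted p of 0.0535 to 0.167. PRIM1 was lower in knockdown cells, at -0.24 ± 0.08, a call lost without WT knockdown replicate 2 or 3 or truncation knockdown replicate 2 or 4, with adjusted p of 0.0582 to 0.0631. PRIM2 rose in scramble cells, by 0.23 ± 0.07, and was called in knockdown cells without truncation knockdown replicate 4, at an adjusted p of 0.0374.

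In the clamp loader RFC2, RFC3 and RFC4 fell, at -0.29 ± 0.07, -0.53 ± 0.06 and -0.31 ± 0.05 in knockdown cells and at -0.31 ± 0.07, -0.33 ± 0.06 and -0.31 ± 0.05 in scramble cells, opposite to RFC5. PCNA was not called, at -0.04 ± 0.06 in knockdown cells and -0.09 ± 0.06 in scramble cells. FEN1, not called in the knockdown comparisons, fell with truncation, at -0.37 ± 0.06 in knockdown cells and -0.32 ± 0.06 in scramble cells, and LIG1 fell, at -0.68 ± 0.08 in knockdown cells and -0.42 ± 0.07 in scramble cells.

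RRM2 had the lowest truncation fold change of the 47 genes in both settings, at -1.11 ± 0.06 in knockdown cells (adjusted p of 4.2e-14 by edgeR) and -0.71 ± 0.06 in scramble cells (adjusted p of 1.4e-10). No RRM2 value of a truncation library reached that of a WT library. The other nucleotide genes fell less, at -0.50 ± 0.06 for RRM1, -0.47 ± 0.06 for TK1, -0.48 ± 0.07 for DUT and -0.31 ± 0.07 for TYMS in knockdown cells. In scramble cells RRM1 and DUT fell, at -0.22 ± 0.06 and -0.39 ± 0.06, and TYMS was not called, at -0.14 ± 0.07. TK1 was called lower in scramble cells, at -0.15 ± 0.06, which was lost without WT scramble replicate 1 or 4 or without truncation scramble replicate 1, 2 or 3, with adjusted p of 0.0832 to 0.163.

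UHRF1 fell, at -0.82 ± 0.06 in knockdown cells and -0.31 ± 0.06 in scramble cells, and CHAF1A at -0.44 ± 0.06 in knockdown cells and -0.22 ± 0.06 in scramble cells, while CHAF1B stood at -0.01 ± 0.06 in knockdown cells and 0.04 ± 0.06 in scramble cells without a call. CCNE2, the other E-type cyclin gene, moved opposite to CCNE1, at -0.85 ± 0.11 in knockdown cells and -0.62 ± 0.12 in scramble cells. It averaged 4.71 ± 0.368 CPM in truncation knockdown cells and 8.56 ± 1.05 CPM in WT knockdown cells. Scramble libraries had CCNE2 at 4.75 ± 0.552 CPM in truncation cells and 7.23 ± 1.03 CPM in WT cells. E2F1 fell, at -0.64 ± 0.07 in knockdown cells and -0.46 ± 0.07 in scramble cells.

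**Figure D4:**
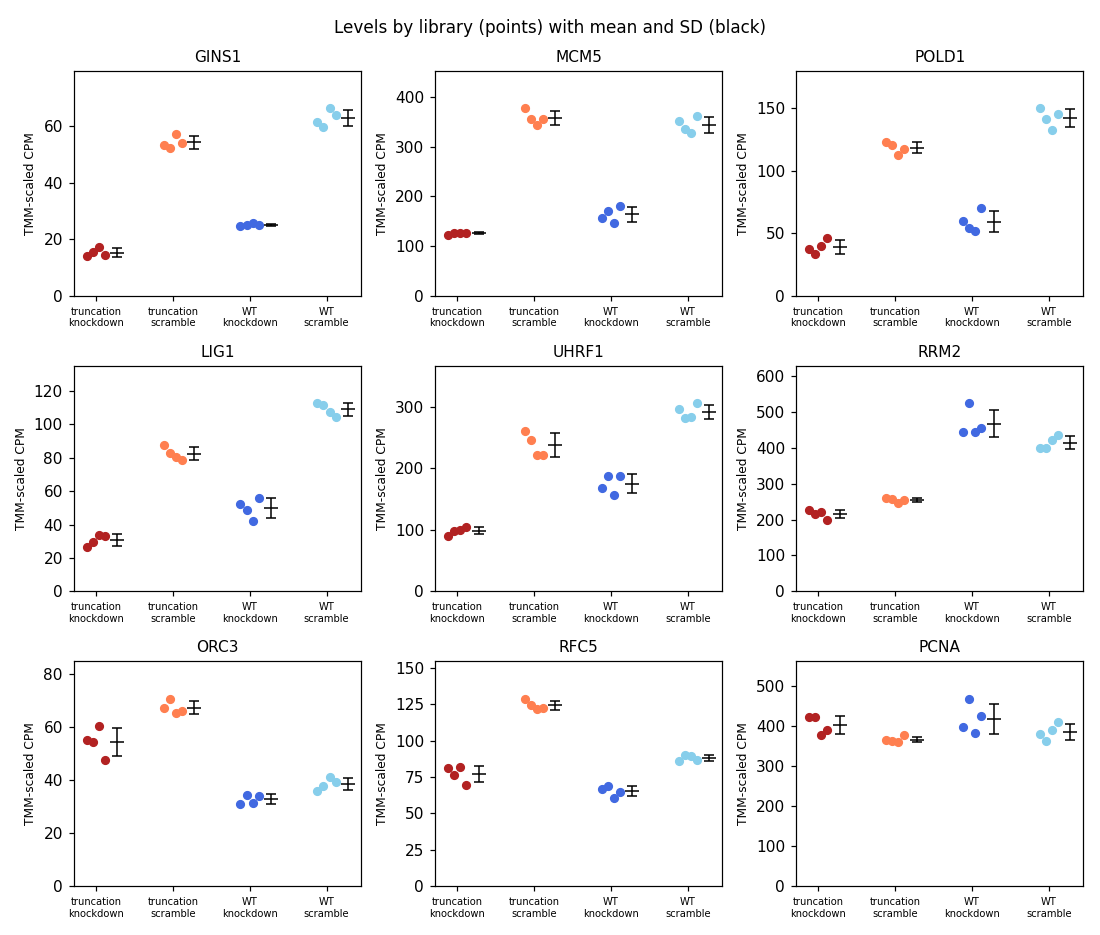
TMM-scaled CPM of 9 genes in each library (points), with the mean and SD of the 4 libraries of a group in black, from truncation knockdown at the left to WT scramble at the right. GINS1, MCM5, POLD1 and LIG1 separate by siRNA across both genotypes, and RRM2 and ORC3 separate by genotype across both siRNAs. GINS1, POLD1 and LIG1 also separate by genotype under each siRNA, and RRM2 and ORC3 by siRNA within each genotype. PCNA stays between 361 and 468 CPM in every library.

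The design also asks whether knockdown acted differently in the 2 genotypes, which was tested as the interaction. Its value is the knockdown log2 fold change of truncation cells less the one of WT cells. It was called for 10 of the 47 genes, all with a lower value in truncation cells, and for 37 it was not called. Over all tested genes 5.69% were called, 3.65% lower and 2.05% higher, and the median was -0.20 for the 47 genes and -0.01 for all genes. The 10 genes were ORC1, 4 of the MCM subunits, GINS1, RRM1, RRM2, TK1 and UHRF1. UHRF1 had the largest difference, at -0.51 ± 0.09 (adjusted p of 0.00124 by edgeR), followed by GINS1 at -0.48 ± 0.09 (adjusted p of 0.00241). MCM5, MCM2, MCM6 and MCM4 stood at -0.41 ± 0.08, -0.41 ± 0.08, -0.35 ± 0.07 and -0.28 ± 0.07. RRM2, at -0.40 ± 0.08, was the only one of the 10 whose knockdown fold change had opposite signs in the 2 genotypes. ORC1, TK1 and RRM1 stood at -0.39 ± 0.10, -0.32 ± 0.08 and -0.28 ± 0.08.

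**Figure D5:**
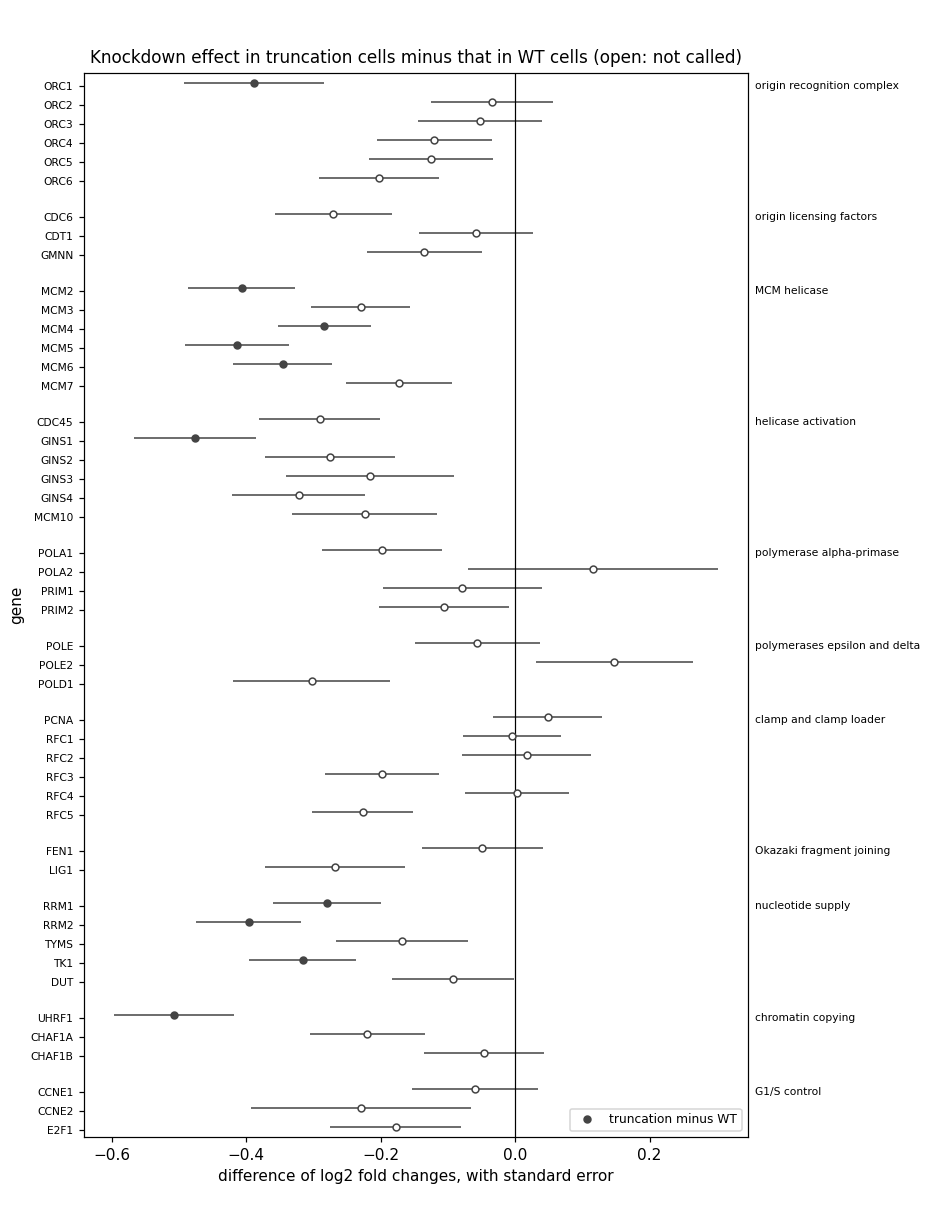
Points give, for each gene, the knockdown log2 fold change of truncation cells less the one of WT cells, bars the standard error, filled points genes called by edgeR. All 10 filled points lie left of 0, between -0.51 for UHRF1 and -0.28 for RRM1.

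The number of interaction calls moved with single libraries, among the 47 genes and over all genes. Over all genes it ranged from 656 without WT scramble replicate 2 to 1670 without WT knockdown replicate 2. Counts of the 47 in these fits are therefore no sign of a change particular to them. Among the 47 the number was 17 without WT knockdown replicate 3, the 7 genes gained being CDC6, MCM3, MCM7, CDC45, GINS2, RFC5 and LIG1. It was 8 of 47 without WT scramble replicate 1 and 12 without WT knockdown replicates 2 and 3 together, all of them lower. The ORC1 call was lost without WT scramble replicate 1 or 2, truncation scramble replicate 2 or truncation knockdown replicate 4, with adjusted p of 0.0501 to 0.0693. The RRM1 call was lost in 7 of the 16 fits that leave out 1 library, with adjusted p of 0.0547 to 0.0939. GINS4 was gained in 4 such fits and POLD1 in 1, without truncation knockdown replicate 4. With upper-quartile scaling 7 of the 47 genes were called, all lower, and the calls over all genes were 502 higher and 397 lower, in place of 350 higher and 624 lower.

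Some calls near the threshold also hung on the scaling, the filter or the samples fitted. In the knockdown comparisons the GMNN call in truncation cells was lost with upper-quartile or library-total scaling and without the filter, at adjusted p of 0.0531 to 0.188. The MCM10 call in WT cells was lost with DESeq2, with each other scaling and in the fit of 2 groups, at 0.0503 to 0.0991. PCNA in truncation cells was lost without the filter, at 0.0794, and ORC1 in WT cells in the fit of 2 groups, at 0.0504. In the truncation comparisons POLE2 in knockdown cells was lost with library totals (0.0736) and in the fit of 2 groups (0.0546), PRIM1 with library totals (0.0678) and POLA2 in the fit of 2 groups (0.0563). In scramble cells the MCM6 call was lost without the filter, at 0.112, and TK1 with library totals (0.0501) and without the filter (0.14). The 3 interaction calls lost with upper-quartile scaling were ORC1, RRM1 and TK1, at 0.0584 to 0.089.

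Lists of other genes gave the surroundings of the 47. Among 35 other fork and origin genes 20 were lower and 2 higher with knockdown in truncation cells. Over all genes 28.1% were lower and 28.7% higher there. In WT cells 16 were lower and 3 higher, against 25.1% lower and 25.2% higher of all genes. The medians were -0.23 in truncation cells and -0.15 in WT cells. DNMT1, the maintenance DNA methyltransferase that UHRF1 recruits, fell, at -1.53 ± 0.06 in truncation cells and -1.01 ± 0.06 in WT cells, and TIMELESS, of the fork protection complex, at -1.40 ± 0.05 in truncation cells and -0.98 ± 0.05 in WT cells. POLD2, the second subunit of polymerase delta, fell, at -1.23 ± 0.07 in truncation cells, and POLE4 rose by 0.34 ± 0.09 in truncation cells and 0.32 ± 0.09 in WT cells. With truncation 27 were lower and 2 higher in knockdown cells, against 23.6% lower and 21.9% higher of all genes. In scramble cells 20 were lower and 1 higher, against 22.4% lower and 21.6% higher of all genes. The medians were -0.40 in knockdown cells and -0.22 in scramble cells. TOPBP1, which helps start replication, fell, at -0.89 ± 0.07 in knockdown cells and -0.72 ± 0.07 in scramble cells, whereas the histone chaperone ASF1A rose by 0.74 ± 0.08 in knockdown cells and 0.85 ± 0.09 in scramble cells. CHTF18, of an alternative clamp loader, fell at -0.70 ± 0.09 in knockdown cells and -0.84 ± 0.09 in scramble cells. The interaction was called for 5 of the 35, all lower, against 3.65% lower and 2.05% higher of all genes, with DNMT1 at -0.51 ± 0.08.

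Of 20 other nucleotide supply genes 15 were lower and 2 higher with knockdown in truncation cells. Over all genes 28.1% were lower and 28.7% higher there. In WT cells 12 were lower and 1 higher, against 25.1% lower and 25.2% higher of all genes. The medians were -0.54 in truncation cells and -0.27 in WT cells. SHMT2, the mitochondrial enzyme that feeds one-carbon units, fell, at -1.81 ± 0.07 in truncation cells and -1.33 ± 0.07 in WT cells. RRM2B, the p53-controlled counterpart of RRM2, rose with knockdown in both genotypes, by 0.29 ± 0.08 in truncation cells and 0.50 ± 0.08 in WT cells. With truncation 17 were lower and 1 higher in knockdown cells, against 23.6% lower and 21.9% higher of all genes. In scramble cells 11 were lower and 2 higher, against 22.4% lower and 21.6% higher of all genes. The medians were -0.39 in knockdown cells and -0.20 in scramble cells. SHMT2 fell with truncation too, at -0.97 ± 0.07 in knockdown cells and -0.49 ± 0.07 in scramble cells. CAD, the first enzyme of pyrimidine synthesis, fell, at -0.84 ± 0.06 in knockdown cells and -0.58 ± 0.06 in scramble cells, and RRM2B rose by 0.33 ± 0.08 in scramble cells. The kinase CMPK1 rose by 0.17 ± 0.06 in knockdown cells and 0.34 ± 0.06 in scramble cells. The interaction was called for 6 of the 20, all lower, against 3.65% lower and 2.05% higher of all genes. SHMT1 was lowest, at -0.50 ± 0.08.

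Among 28 other G1/S control genes more were called lower than higher in each comparison. With knockdown 13 were lower and 8 higher in truncation cells, where 28.1% of all genes were lower and 28.7% higher. In WT cells 11 were lower and 8 higher, where 25.1% of all genes were lower and 25.2% higher, with medians of -0.08 in truncation cells and -0.01 in WT cells. CDKN1A, the p21 inhibitor of cyclin-dependent kinases, averaged 1116 ± 85.8 CPM in truncation knockdown cells and 385 ± 2.73 CPM in truncation scramble cells. WT cells had CDKN1A at 843 ± 33.2 CPM with knockdown and 309 ± 9.17 CPM with scramble. It rose with knockdown by 1.57 ± 0.05 in truncation cells and 1.46 ± 0.05 in WT cells and with truncation by 0.42 ± 0.05 in knockdown cells and 0.30 ± 0.05 in scramble cells, and its interaction was not called, at 0.11 ± 0.07. CDKN1B, a related inhibitor, rose with knockdown by 0.70 ± 0.06 in truncation cells and 0.81 ± 0.06 in WT cells, and the kinase CDK4 fell, at -1.18 ± 0.06 in truncation cells and -0.72 ± 0.06 in WT cells. MYBL2, a transcription factor of proliferating cells, fell, at -1.10 ± 0.06 in truncation cells and -0.77 ± 0.06 in WT cells. CDC25A, the phosphatase that activates CDK2, fell in each, at -0.45 ± 0.08 in truncation cells and -0.30 ± 0.08 in WT cells with knockdown, and at -0.36 ± 0.08 in knockdown cells and -0.20 ± 0.08 in scramble cells with truncation. With truncation 14 were lower and 8 higher in knockdown cells, against 23.6% lower and 21.9% higher of all genes, and 11 were lower and 10 higher in scramble cells, against 22.4% lower and 21.6% higher of all genes, with medians of -0.12 in knockdown cells and -0.02 in scramble cells. Cyclin A2 (CCNA2) fell, at -0.94 ± 0.05 in knockdown cells and -0.35 ± 0.05 in scramble cells, and FBXO5, an inhibitor of the anaphase-promoting complex, at -0.85 ± 0.07 in knockdown cells and -0.41 ± 0.07 in scramble cells. MYBL2 stood at -0.74 ± 0.06 in knockdown cells and -0.40 ± 0.06 in scramble cells, and E2F8, a repressor of the E2F family, at -0.74 ± 0.08 in knockdown cells and -0.44 ± 0.08 in scramble cells, all called lower. E2F6, another repressor of that family, rose by 0.76 ± 0.06 in knockdown cells and 0.74 ± 0.06 in scramble cells. CDK6, a kinase of G1, rose by 0.64 ± 0.09 in knockdown cells and 0.91 ± 0.09 in scramble cells. The interaction was called for 6 of the 28, all lower, against 3.65% of all genes called lower and 2.05% higher, with CCNA2 lowest at -0.58 ± 0.07.

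Markers of mitosis, the other proliferative phase, were called lower with knockdown mainly in truncation cells. Of 20 such genes 18 were lower and 2 not called with knockdown in truncation cells. Over all genes 28.1% were lower and 28.7% higher there. In WT cells 7 were lower, 1 higher and 12 not called. The share of all genes there was 25.1% lower and 25.2% higher, 50.3% in all. The medians were -0.39 in truncation cells and -0.06 in WT cells. The kinesin KIF20A fell, at -1.07 ± 0.06 in truncation cells and -0.52 ± 0.05 in WT cells, and the kinase AURKB at -1.01 ± 0.06 in truncation cells and -0.59 ± 0.06 in WT cells, while AURKA rose in WT cells by 0.29 ± 0.05. CENPA, the centromeric histone, fell in both genotypes, at -0.60 ± 0.07 in WT cells. With truncation 18 were lower and 2 not called in knockdown cells, against 23.6% lower and 21.9% higher of all genes. In scramble cells 16 were lower and 4 not called, against 22.4% lower and 21.6% higher of all genes. The medians were -0.60 in knockdown cells and -0.34 in scramble cells. KIF20A fell with truncation, at -1.17 ± 0.06 in knockdown cells and -0.62 ± 0.05 in scramble cells, and AURKB at -1.06 ± 0.06 in knockdown cells and -0.63 ± 0.06 in scramble cells. MKI67, the proliferation marker, fell, at -0.87 ± 0.11 in knockdown cells and -0.59 ± 0.10 in scramble cells. The interaction was called for 12 of the 20, all lower, against 3.65% lower and 2.05% higher of all genes. Cyclin B1 (CCNB1) was lowest, at -0.57 ± 0.07. The part of a changed share of cycling cells in the results above was not tested.

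Per length of their annotated exons, the level of the 47 genes spanned a wide range. The exons of all annotated forms of a gene were joined to give this length, which can exceed that of the RNA made, and ranks depend on it. In CPM per kilobase PCNA averaged 274 in truncation knockdown, 248 in truncation scramble, 284 in WT knockdown and 262 in WT scramble cells. At the low end POLA2 had 0.951 in truncation knockdown, 1.31 in truncation scramble, 0.754 in WT knockdown and 1.10 in WT scramble cells. CCNE2 had 1.07 in truncation knockdown, 1.08 in truncation scramble, 1.95 in WT knockdown and 1.64 in WT scramble cells. Within the MCM ring MCM7 was the highest on this scale in every group and MCM5 the lowest in both knockdown groups, at 114 against 17.1 in truncation knockdown cells. MCM5 has the longest joined exons of the ring, at 7338 bases, against 4386 for MCM7 and 4118 for MCM6. In CPM, without that division, MCM5 was not the lowest of the ring in truncation knockdown cells. GINS3 stood below the other GINS subunits in every group, at 1.70 in truncation knockdown and 3.10 in WT scramble cells. The exons of 21 of the 47 genes overlap those of another gene, 17 on the opposite strand, and the strand setting of the counting is not given in the sources used here. Reads from such pairs, among them MCM7 with AP4M1 and TYMS with ENOSF1, cannot be told apart if strand was not used. Named pseudogenes exist for 7 of the 47, PCNA, RFC3, RFC5, FEN1, RRM2, TYMS and DUT.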

How the data were processed

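RNA of HCT116 cells was sequenced in 16 libraries. The authors deposited raw counts per Ensembl gene (60668 genes), a filtered table of the same counts (22916 genes), and TMM-scaled CPM (a signal) for those filtered genes. The submitters' processing notes name hg38 as the build and, without saying what each was for, STAR 2.7.3a, DESeq2, limma and edgeR. How reads were assigned to genes, and whether strand was used, is not given in the sources used here. Groups followed the description, genotype and treatment labels. The 47 genes and all lists were chosen with earlier results of these data known.

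Here the deposited counts were filtered with filterByExpr (17104 genes) and modelled by quasi-likelihood in edgeR (version 4.0.16, under R 4.3.3) with TMM scaling, 1 coefficient per group, 12 residual degrees of freedom and a common biological coefficient of variation of 7.25%. Tests were two-sided with Benjamini-Hochberg adjustment over all tested genes and a threshold of 0.05. Standard errors were obtained as the absolute fold change over the root of F. CPM values are the authors' deposited signal. The script was tested on simulated data. Replicates of 24 pairs were never identical, with a chi-square per degree of freedom of 2.75 to 20.8, so each counted once. Alternatives were other scalings, no filter, DESeq2 1.42.0, fits of 2 groups, a replicate block and leaving out libraries. Leaving out WT knockdown replicates 2 and 3 together was chosen after seeing the data. Values in every library are given for the gene with the largest knockdown change in truncation cells within each role, the up to 4 highest called genes per comparison, the 6 smallest interaction p-values, and genes never called in a comparison of 2 groups. The rule for other lists allowed up to 3 called genes with the largest changes per direction and comparison, plus CDKN1A, RRM2B and CDC25A. Of these at least the first in each direction and comparison of 2 groups is named, and 1 gene is not reported here. Coordinates and exon lengths are from GENCODE v29 on GRCh38, 1-based, a release that may not be the one the authors counted with.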

Additional observations from a re-analysis of the deposited data

Results flagged for a closer look

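In 6 of 188 sets of 4 libraries, 1 library lay far from the other 3 of its group, where chance alone flags about 1 in 20 sets. They were ORC2 at 52.0 CPM in truncation knockdown replicate 4, MCM10 at 47.8 CPM in truncation knockdown replicate 1 and RFC3 at 29.4 CPM in truncation knockdown replicate 3. The others were ORC4 at 45.3 CPM in truncation scramble replicate 4, RRM2 at 524 CPM in WT knockdown replicate 2 and RFC2 at 95.0 CPM in WT scramble replicate 4.

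The knockdown effect was called different between truncation and WT cells, by the interaction test, in 10 of the 47 genes, all lower. Over all tested genes 3.65% were called lower and 2.05% higher. The calls of ORC1 and RRM1 were lost in some fits without 1 library, and those of ORC1, RRM1 and TK1 with upper-quartile scaling. The difference in log2 fold change was -0.507 for UHRF1, -0.476 for GINS1, -0.414 for MCM5, -0.407 for MCM2 and -0.396 for RRM2. It was -0.388 for ORC1, -0.345 for MCM6, -0.316 for TK1, -0.284 for MCM4 and -0.279 for RRM1.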

How the results depend on the processing

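No call among the 47 genes reversed. Of 3995 values of single genes under the alternatives, 3845 kept their direction and side of the threshold, 75 lost a call and 75 gained one. The number of the 47 genes called ranged over the fits without 1 library from 33 to 36 for truncation in scramble cells, 36 to 38 for truncation in knockdown cells, 34 to 36 for knockdown in truncation cells and 33 to 36 for knockdown in WT cells. Over all genes these ranges were 6640 to 7205, 7048 to 8059, 9088 to 9320 and 7863 to 8477. The interaction moved most. DESeq2 called it for 16 of the 47 genes in place of 10, and for 1470 genes in all in place of 974, and without WT knockdown replicates 2 and 3 together it was called for 1473 genes. Without 1 library it ranged from 8 to 17 of the 47 and from 656 to 1670 of all genes, the highest without WT knockdown replicate 3 and without WT knockdown replicate 2 in that order. The cause was not tested. With library totals alone 7 of the 47 genes were called higher with knockdown in WT cells, in place of 4, the count over all genes not being given here. The fit of 2 groups could not be made for the interaction.

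Replicate numbers did not pair the samples. Same-numbered libraries of different groups had correlations of their deviations from -0.0837 to 0.164, with a median of 0.0207 over 24 pairs, and 6 of 16 libraries correlated best with their own number. With the replicate number as a block, 36 of the 47 genes were called for truncation in scramble cells, 38 for truncation in knockdown cells, 36 for knockdown in truncation cells, 35 for knockdown in WT cells and 11 for the interaction. Among the 47, the block gained the call of CHAF1B in WT cells and that of GINS4 in the interaction, and changed no other. Counts over all genes with the block are not given here.

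Depth was even across libraries, and POLA2, one of the lowest genes, had the widest errors.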
